A study of Mus musculus with 12 samples.

Results

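The cell cycle genes described here are 59 genes of 24946 in the expression table: cyclins, cyclin-dependent kinases (CDKs) and their CDC25 activators, the genes that license and carry out DNA replication, genes of the mitotic chromosome, spindle and checkpoint, the E2F factors, the CDK inhibitors and the retinoblastoma (RB) family. They were chosen by name and role, with earlier results of these data known. The imprinted inhibitor Cdkn1c was left out. Of the 59 genes, 58 passed the filter on low values, a mean above 1 in at least 1 group, and Cdkn2b did not. The libraries were 12 bulk RNA sequencing libraries from mouse embryonic stem cell (ESC) aggregates, 3 for each of 4 groups. Embryoids were formed on day 3 by merging an untreated aggregate grown from 100 cells with a smaller aggregate grown from 50 cells and incubated with BMP4 for 8 h. Controls were formed by merging an untreated aggregate of each size, and both kinds were collected at D7 or D8. Before aggregation the ESCs of both conditions grew in serum replacement with LIF, Chir99021 and PD03259021, and afterwards in N2 and B27 medium. The labels give BMP4 at 10 ng/ml, a dose for which the labels and the methods of the study differ. Every library is labelled as the E14TG2a ESC line of strain 129/ola, and each came from RNA of pooled embryoids or controls.

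Progress through the cell cycle is driven by CDKs, which are active only when bound to a cyclin. D-type cyclins with CDK4 or CDK6 and then E-type cyclins with CDK2 phosphorylate RB proteins in G1, which frees E2F factors to switch on the genes of DNA replication. A-type cyclins act in S phase and B-type cyclins with CDK1 drive mitosis. INK4 proteins inhibit CDK4 and CDK6, Cip/Kip proteins inhibit CDK2 complexes, and cells that leave the cycle to differentiate, such as neurons, commonly raise these inhibitors and lower the replication and mitosis genes.

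Expression was given as TPM (a scale in which every library has the same total and each gene is corrected for its length) rounded to whole numbers. The libraries summed to between 997897 and 998433, their sequencing depth is unknown, and a value of 1 or 2 carries a large rounding error. Hprt, an enzyme of purine salvage, was listed at 32 to 36 in the 6 control libraries and at 0 or 1 in the 6 embryoid libraries, although the labels give all libraries the same line, and the library names begin with WT for the controls and with E14 for the embryoids. A difference of line or clone between embryoids and controls therefore cannot be told apart from the difference between the conditions in any comparison below. D7 embryoid replicate 2 stood apart, with 18.7% of its TPM in ribosomal protein genes, where its fellow replicates had 16.1 and 16.8%, and a size factor of 0.822, where theirs were 0.943 and 0.945. The ribosomal share also differed between the conditions. It was 12.8 to 13.4% in D7 controls, 10.7 to 11.2% in D8 controls and 15.6 to 16.4% in D8 embryoids. The part of this share in the differences below was not tested. Marker lists chosen for these tissues are given as a description. They were chosen with earlier results of these data known and are no independent check of the labels. The summed TPM of 7 cardiac markers was 0 to 4 in the controls and 512 to 2972 in the embryoids, and that of 12 neuron markers was 1181 to 1266 in D7 controls, 2676 to 2832 in D8 controls, 261 to 394 in D7 embryoids and 466 to 850 in D8 embryoids. The study describes its replicates as biologically independent samples and the labels do not say so, so the p-values measure the spread between these libraries, which may in part be technical.

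Differences are given on the log2(TPM + 1) scale with their standard error, from one limma model of the 4 groups fitted over 13751 genes, and a fold change on this scale understates the change of a low gene. A gene passed the test at a Benjamini-Hochberg adjusted p under 0.05 over all tested genes, and it was called where its absolute log2 fold change was also above 1. Over all tested genes, the median embryoid-minus-control difference was -0.19 on D7 and -0.18 on D8. After scaling by median-of-ratios size factors, which sets the typical gene to no change, these medians were 0.01 and 0.02, and differences below are read against this shift. Of the 58 tested cell cycle genes, 23 did not pass the test at D7 on the deposited scale and 15 of these passed as higher in embryoids after that scaling, and at D8 it was 10 of 15.

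At D7, 1 of the 58 tested genes was called higher in embryoids (Ccnd1) and 3 were called lower (Cdc25b, Cdkn2c and Rb1), against 8.27% and 8.35% of all tested genes. With no minimum fold, 16 genes were higher and 19 were lower, 27.6 and 32.8% of the 58, against 20.4% higher and 44.8% lower over all genes. After median-of-ratios scaling the split was 31 higher and 10 lower, against 31.8 and 29.3% of all genes. All 16 higher genes and 10 of the 19 lower genes were shared with those of the deposited scale. The median difference of the 58 genes was -0.03, and 0.17 after that scaling. In bulk samples, fewer cells in cycle and less RNA of these genes per cell cannot be told apart.

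At D8, 1 gene was called higher (Ccnd1) and 3 were called lower (Cdkn2c, E2f7 and Rb1), against 10.4% and 9.96% of all tested genes. With no minimum fold, 29 genes were higher and 14 were lower in embryoids, 50% and 24.1% of the 58, whereas 23.9% of all genes were higher and 44.4% lower. Median-of-ratios scaling gave 39 higher and 11 lower, against 34.7 and 31% of all genes. The 16 genes that were higher at D7 were all higher at D8, and 13 genes were lower on both days. The median of the 58 genes was 0.18, above that of all genes by more than it was at D7.

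**Figure D1:**
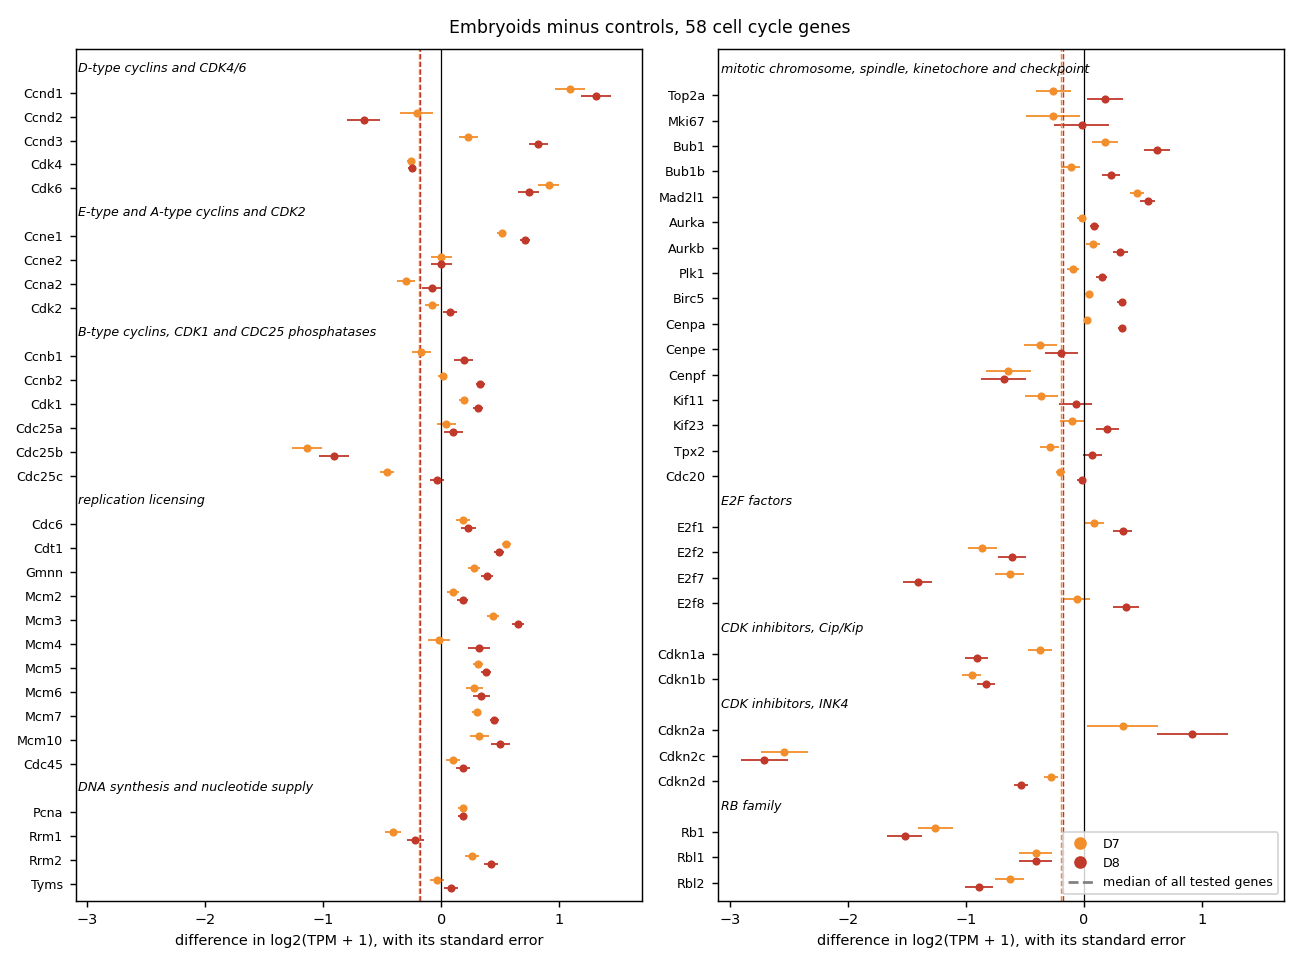
Difference between embryoids and controls for the 58 tested cell cycle genes, grouped by role, at D7 (orange) and D8 (red). Points are differences in log2(TPM + 1) with their standard errors from limma, dashed lines are the medians over all tested genes at -0.19 and -0.18, and the replication licensing genes lie to the right of both lines while Cdkn2c, Rb1, E2f7 and the Cip/Kip inhibitors lie to the left.

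The 3 D-type cyclins bind the same kinases, and their balance differed between embryoids and controls. Ccnd1 (chr7:144929931-144939925, GRCm38, minus strand) had TPM of 94, 86 and 92 in D7 controls and 193, 167 and 228 in D7 embryoids. At D8 it had 93, 114 and 84 in controls and 272, 228 and 225 in embryoids. Every embryoid library lay above every control library, and the difference was 1.09 ± 0.13 at D7 (SE, adjusted p = 1.6e-05) and 1.31 ± 0.13 at D8 (adjusted p = 2.9e-06). Without D7 embryoid replicate 3 the D7 difference was 0.98 and was no longer above the minimum fold. Ccnd1 made up 17.8 to 21.3% of the summed D-type cyclin TPM in D7 controls and 15.1 to 19.1% in D8 controls, against 33.9 to 35.6% and 35.8 to 37.7% in the embryoids.

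Ccnd2 was lower in embryoids at D8. It stood at 243, 287 and 294 in D7 controls, 222, 204 and 291 in D7 embryoids, 431, 382 and 395 in D8 controls and 301, 255 and 215 in D8 embryoids. The groups overlapped at D7, where the difference of -0.21 ± 0.14 did not pass the test (adjusted p = 0.22) and was 0.02 after median-of-ratios scaling, and not at D8, where Ccnd2 was lower in embryoids by -0.66 ± 0.14 (adjusted p = 0.0019). Its share of the D-type cyclins was 63.9 to 71.4% in D8 controls and 36 to 41.6% in D8 embryoids. Ccnd3 stood at 105, 111 and 110 in D7 controls and 127, 122 and 133 in D7 embryoids, then at 80, 102 and 79 in D8 controls and 150, 154 and 157 in D8 embryoids. It was higher in embryoids by 0.23 ± 0.08 at D7 (adjusted p = 0.029) and by 0.82 ± 0.08 at D8 (adjusted p = 3.6e-06), and the widening of 0.60 ± 0.12 passed the test of the change itself (adjusted p = 0.010). Together the D-type cyclins summed to 474 ± 28.4 (SD, n = 3) in D7 controls, 562.3 ± 81.4 in D7 embryoids, 586.7 ± 25 in D8 controls and 652.3 ± 64.4 in D8 embryoids, which overlapped between the conditions on both days.

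The kinases of the D-type cyclins lay at opposite ends of the scale. Cdk4 was the highest of the 59 genes, with 1836 to 1901 TPM in D7 controls, 1509 to 1620 in D7 embryoids, 1760 to 1780 in D8 controls and 1466 to 1499 in D8 embryoids. Its differences of -0.26 ± 0.03 and -0.25 ± 0.03 passed the test on the deposited scale and did not after median-of-ratios scaling, where they were -0.03 and -0.04. Cdk6, the alternative kinase, was listed at 2 in all 6 controls, at 5, 4 and 5 in D7 embryoids and at 4 in the 3 D8 embryoids. It was higher in embryoids by 0.91 ± 0.09 at D7 and 0.74 ± 0.09 at D8 (adjusted p = 6.8e-06 and 3.1e-05), from values that are close to the rounding step.

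Of the E-type cyclins, Ccne1 passed the test on both days and Ccne2 on neither. Ccne1, which together with CDK2 drives entry into S phase, had TPM of 74, 73 and 72 in D7 controls, 104, 105 and 105 in D7 embryoids, 54, 54 and 50 in D8 controls and 88, 88 and 84 in D8 embryoids. The spread within each group was a few TPM, the groups did not overlap, and the differences were 0.51 ± 0.04 (adjusted p = 7.9e-07) and 0.71 ± 0.04 (adjusted p = 4.8e-08). Its paralog Ccne2 was listed at 2 in all 12 libraries, where rounding hides any small difference. Ccna2, the S phase cyclin, was lower in D7 embryoids by -0.30 ± 0.08 (adjusted p = 0.0071), a difference that did not pass the test after median-of-ratios scaling. Ccna2 at D8 and Cdk2 on both days had differences of -0.08 to 0.07 that did not pass the test. After median-of-ratios scaling Ccna2 stood at 0.12 at D8, and Cdk2 passed the test at 0.14 and 0.28.

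The mitotic kinase and its cyclins differed by small amounts. Cdk1 had TPM of 84, 85 and 85 in D7 controls and 99, 98 and 94 in D7 embryoids, and 74, 75 and 71 against 91, 93 and 90 at D8. It was higher in embryoids by 0.19 ± 0.04 and 0.31 ± 0.04 (adjusted p = 0.00074 and 1.7e-05). Ccnb2 did not differ at D7 beyond its spread (0.01 ± 0.04, adjusted p = 0.85, and 0.24 and passing after median-of-ratios scaling), with 231, 228 and 227 in controls and 232, 218 and 242 in embryoids. At D8 it had 174, 178 and 179 in controls and 234, 213 and 222 in embryoids, 0.33 ± 0.04 higher (adjusted p = 4.2e-05). Ccnb1 did not pass the test on either day, at -0.17 ± 0.08 and 0.19 ± 0.08, and after median-of-ratios scaling it stood at 0.06 at D7 and passed at D8 (0.40, adjusted p = 6.8e-05).

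The 3 CDC25 phosphatases, which remove inhibitory phosphates from CDKs, went separate ways. Cdc25b (chr2:131186949-131198497, GRCm38, plus strand) had TPM of 73, 71 and 73 in D7 controls, 31, 28 and 39 in D7 embryoids, 90, 94 and 93 in D8 controls and 57, 40 and 51 in D8 embryoids. Every embryoid library lay below every control. The difference was -1.14 ± 0.13 at D7 (adjusted p = 1.1e-05) and -0.91 ± 0.13 at D8 (adjusted p = 5.8e-05). The D7 value was -0.91 after median-of-ratios scaling and -0.92 after quantile scaling, short of the minimum fold. Cdc25c was lower in embryoids at D7 (79 to 80 in controls, 54 to 62 in embryoids, -0.46 ± 0.06, adjusted p = 4.0e-05) and differed by -0.04 ± 0.06 at D8 (adjusted p = 0.61), while Cdc25a did not pass the test on either day, at 0.04 and 0.10. After median-of-ratios scaling Cdc25c turned to 0.17 at D8 and Cdc25a stood at 0.26 and 0.31, all passing the test.

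The replication licensing genes were mostly higher in embryoids at D7 and all higher at D8. These genes load the MCM helicase onto origins (Cdc6, Cdt1), form it (Mcm2 to Mcm7), activate it (Mcm10, Cdc45) or restrain loading (Gmnn). Embryoids had higher values for 8 of the 11 at D7 (72.7%, against 20.4% of all genes) and for all 11 at D8 (against 23.9%). None was lower on either day. After median-of-ratios scaling all 11 were higher on both days, against 31.8 and 34.7% of all genes. Their median difference was 0.28 at D7 and 0.38 at D8, against -0.19 and -0.18 over all genes. Their summed TPM was 2208, 2249 and 2258 in D7 controls, 2863, 2570 and 2759 in D7 embryoids, 1830, 1822 and 1775 in D8 controls and 2354, 2380 and 2446 in D8 embryoids. The embryoid sums lay above the control sums of the same day in every library.

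Within this group the size of the difference varied. Cdt1, the loading factor that geminin inhibits, had the largest difference at D7, with 43 TPM in each control and 64, 63 and 63 in embryoids (0.55 ± 0.04, adjusted p = 2.8e-07), and 40, 41 and 41 against 56, 58 and 59 at D8 (0.49 ± 0.04). Mcm3, a helicase subunit, had the largest at D8, with 242, 238 and 223 in controls and 360, 374 and 374 in embryoids (0.65 ± 0.05, adjusted p = 6.8e-07), after 298, 303 and 307 against 439, 377 and 422 at D7 (0.44 ± 0.05). The helicase genes Mcm5, Mcm6 and Mcm7 and the factors Cdc6 and Mcm10 were higher by 0.18 to 0.32 at D7 and by 0.23 to 0.50 at D8. Gmnn, which encodes geminin, was also higher, by 0.28 ± 0.05 and 0.39 ± 0.05. The smallest differences at D7 were those of Mcm4 (39, 42 and 42 against 46, 34 and 42, -0.02 ± 0.09), Mcm2 (0.10 ± 0.05) and Cdc45 (0.10 ± 0.06), which did not pass the test. At D8 the smallest were those of Mcm2 (0.18 ± 0.05) and Cdc45 (0.18 ± 0.06), which passed it.

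Promoters of licensing and mitosis genes are shown because these genes are known targets of E2F factors and of complexes that bind the CHR element, respectively. Windows of 250 bases before to 50 bases after each start site were taken from RefSeq on GRCm38.p6, and 49 of the 59 genes matched, with 55 windows. The E2F motif was searched as TTTCCCGC, TTTGGCGC, TTTCGCGC or TTTGCCGC, the CHR as TTTGAA or TTCGAA, and CCAAT as such, all on both strands. An E2F match was found in 6 of 9 licensing genes (66.7%), in 0 of 14 mitosis genes and in 2.6% of the 27025 genes with a window. A CHR match was found in 3 of the 9 licensing genes, in 11 of the 14 mitosis genes (78.6%) and in 21.7% of all genes, and CCAAT in 7, 12 and 41.1%. Matches to different motifs overlapped in 1 Mcm7 window and in no other window of the 49 genes. Cdt1, Mcm3 and Mcm6 are examples of licensing genes with an E2F match. Ccnb2, Cenpa and Plk1 are examples of mitotic genes with a CHR match. All of these examples were higher in D8 embryoids. Top2a, Mki67, Aurka, Kif11, Kif23 and Cdc20 also had a CHR match and did not pass the test at D8 on the deposited scale. Cenpf had a CHR match and was lower. Birc5 and Mad2l1, without a CHR match, and Mcm2, Mcm10 and Cdc45, without an E2F match, were higher. An E2F match was found in 0 of 4 DNA synthesis genes. E2F and CHR matches are in capitals, and a pair of the 3 E2F matches of Mcm6 overlap each other.
Cdt1, chr8:122567765-122568064, plus strand: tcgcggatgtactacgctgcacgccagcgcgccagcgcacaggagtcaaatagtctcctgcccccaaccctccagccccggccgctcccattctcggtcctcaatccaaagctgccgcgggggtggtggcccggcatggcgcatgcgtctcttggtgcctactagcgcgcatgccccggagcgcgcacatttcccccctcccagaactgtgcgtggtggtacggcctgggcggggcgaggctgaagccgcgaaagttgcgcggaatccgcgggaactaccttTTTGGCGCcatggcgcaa
Mcm3, chr1:20820263-20820562, minus strand: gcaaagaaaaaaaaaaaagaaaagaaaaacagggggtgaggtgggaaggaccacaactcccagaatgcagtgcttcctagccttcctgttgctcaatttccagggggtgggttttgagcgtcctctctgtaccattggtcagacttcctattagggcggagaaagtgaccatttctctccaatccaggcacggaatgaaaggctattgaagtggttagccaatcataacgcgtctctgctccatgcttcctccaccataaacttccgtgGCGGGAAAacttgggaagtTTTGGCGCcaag
Mcm6, chr1:128359656-128359955, minus strand: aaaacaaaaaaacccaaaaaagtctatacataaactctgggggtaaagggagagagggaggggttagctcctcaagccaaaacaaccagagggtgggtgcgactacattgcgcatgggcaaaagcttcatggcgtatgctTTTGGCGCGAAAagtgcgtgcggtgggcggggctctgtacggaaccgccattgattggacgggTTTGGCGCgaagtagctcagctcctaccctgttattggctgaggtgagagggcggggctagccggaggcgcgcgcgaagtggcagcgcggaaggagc
Ccnb2, chr9:70421505-70421804, minus strand: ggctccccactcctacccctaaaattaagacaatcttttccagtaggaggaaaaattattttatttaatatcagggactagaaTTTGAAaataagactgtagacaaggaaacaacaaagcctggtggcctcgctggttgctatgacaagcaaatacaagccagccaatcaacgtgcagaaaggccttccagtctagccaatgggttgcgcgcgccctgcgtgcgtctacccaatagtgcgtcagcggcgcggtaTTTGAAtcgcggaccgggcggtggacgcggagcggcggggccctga
Cenpa, chr5:30666636-30666935, plus strand: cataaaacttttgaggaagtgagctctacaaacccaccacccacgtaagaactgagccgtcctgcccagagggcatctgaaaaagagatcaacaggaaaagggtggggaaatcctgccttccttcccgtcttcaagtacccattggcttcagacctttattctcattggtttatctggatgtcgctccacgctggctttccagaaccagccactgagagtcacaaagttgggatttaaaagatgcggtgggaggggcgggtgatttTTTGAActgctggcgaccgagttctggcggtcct
Plk1, chr7:122159185-122159484, plus strand: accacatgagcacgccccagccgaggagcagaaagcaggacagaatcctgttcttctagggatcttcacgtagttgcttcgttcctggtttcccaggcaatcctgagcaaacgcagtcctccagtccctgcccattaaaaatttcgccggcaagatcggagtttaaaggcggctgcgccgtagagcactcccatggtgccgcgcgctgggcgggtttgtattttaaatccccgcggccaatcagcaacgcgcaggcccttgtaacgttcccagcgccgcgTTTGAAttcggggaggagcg
A match describes these letters only and is no evidence that a factor bound there. In Cdt1 and Mcm3 the E2F matches lay within the last 50 bases, which follow the start site, as did the CHR match nearest the start of Ccnb2, Cenpa and Plk1.

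The genes that supply nucleotides and clamp the polymerase were split. Rrm2, a subunit of ribonucleotide reductase, was higher in embryoids by 0.26 ± 0.06 and 0.42 ± 0.06, with 296, 297 and 299 against 379, 324 and 368 TPM at D7 and 247, 246 and 246 against 348, 312 and 333 at D8. Pcna, the sliding clamp, was higher by 0.18 ± 0.04 on both days. Rrm1, the other subunit of the same enzyme, was lower by -0.41 ± 0.07 at D7 (231, 247 and 251 against 203, 160 and 189) and by -0.22 ± 0.07 at D8, of which the D8 value of -0.01 after median-of-ratios scaling did not pass the test. Tyms, which makes thymidylate, had -0.04 ± 0.06 and 0.08 ± 0.06 and did not pass it, and passed it at 0.18 and 0.29 after that scaling.

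Of 38 further replication genes, 23 did not pass the test on each day. At D7, 11 were higher and 4 lower, 28.9 and 10.5% against 20.4 and 44.8% of all genes. At D8, 15 were higher and 0 lower, 39.5 and 0% against 23.9 and 44.4%, and 17 had an unadjusted p under 0.05. None was called. After median-of-ratios scaling 29 and 34 were higher and 0 lower. Over all genes 31.8 and 34.7% were higher and 29.3 and 31% lower after that scaling. Their median difference was 0.05 at D7 and 0.12 at D8.

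Of 16 genes of the mitotic chromosome, spindle, kinetochore and checkpoint, 10 did not pass the test at D7 and 8 did not at D8. Embryoids had 1 higher and 5 lower at D7, 6.25 and 31.2% against 20.4 and 44.8% of all genes, and 7 higher and 1 lower at D8, 43.8 and 6.25% against 23.9 and 44.4%. The D7 median of -0.11 became 0.12 after median-of-ratios scaling, with 8 higher and 1 lower, so its direction depends on the scale. The D8 median was 0.16, and 0.38 after that scaling with 12 higher and 1 lower. Mad2l1, which encodes the checkpoint protein MAD2, was the only one higher on both days, with 105, 107 and 110 TPM against 155, 139 and 148 at D7 (0.45 ± 0.06, adjusted p = 2.8e-05) and 84, 85 and 80 against 130, 113 and 122 at D8 (0.54 ± 0.06). Bub1, a checkpoint kinase, had the largest increase of the 7 at D8, with 35, 34 and 33 against 53, 50 and 56 (0.62 ± 0.11, adjusted p = 0.00026), and 0.18 ± 0.11 at D7. Aurka, the spindle pole kinase, had the smallest at D7, with 202 to 208 in controls and 191 to 213 in embryoids (-0.02 ± 0.04), and it passed the test as higher on both days after median-of-ratios scaling (0.21 and 0.30).

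The genes lower at D7 were Cdc20, Cenpf, the kinesins Cenpe (-0.37) and Kif11 (-0.36) and the spindle factor Tpx2 (-0.29), of which Cenpf alone was lower at D8 and after median-of-ratios scaling at D7. Besides Mad2l1, Bub1, Birc5 and Cenpa, the genes higher at D8 were the kinase genes Aurkb (0.31) and Plk1 (0.15) and the checkpoint gene Bub1b (0.23). Top2a, which untangles DNA, and the kinesin Kif23 had D8 differences of 0.18 ± 0.15 and 0.20 ± 0.10 and passed the test on neither day, although after median-of-ratios scaling both passed at D8 (0.39 and 0.41).

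Of the genes higher at D8, Birc5 and Cenpa had the smallest standard errors. Birc5, a subunit of the chromosomal passenger complex, had 264, 259 and 252 TPM in D7 controls and 265, 278 and 254 in D7 embryoids, then 197, 202 and 194 against 242, 250 and 250 at D8. Cenpa, the histone variant of the centromere, had 203, 199 and 199 against 209, 200 and 205 at D7 and 160, 152 and 153 against 198, 189 and 196 at D8. Groups overlapped at D7, where both genes passed the test only after median-of-ratios scaling (0.27 and 0.26), and did not at D8, and the D8 differences were 0.32 ± 0.04 and 0.32 ± 0.03 (adjusted p = 1.6e-05 and 6.0e-06). Cdc20, the activator of the anaphase-promoting complex, was lower at D7 by -0.20 ± 0.04 on the deposited scale and stood at 0.03 after median-of-ratios scaling, where the sign turned. At D8 it went from -0.02 to 0.19 with that scaling and passed the test there.

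Cenpf, a large kinetochore protein, was lower in embryoids on both days. It had TPM of 36, 44 and 45 in D7 controls, 28, 18 and 36 in D7 embryoids, 42, 38 and 37 in D8 controls and 25, 23 and 24 in D8 embryoids, which is -0.64 ± 0.19 and -0.68 ± 0.19 (adjusted p = 0.011 and 0.0072). Mki67, a widely used marker of cycling cells, did not pass the test, with 73, 93 and 94 against 80, 46 and 101 at D7 (-0.26 ± 0.23) and 81, 76 and 70 against 73, 71 and 80 at D8 (-0.02 ± 0.23). These are among the longest transcripts of the set, 11130 bases for Cenpf and 10061 for Mki67. Over all genes the median embryoid-control difference went from -0.08 in the shortest of 4 classes of transcript length to -0.28 in the longest at D7 and from -0.06 to -0.29 at D8, and the part of transcript length in the values of these genes was not tested.

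**Figure D2:**
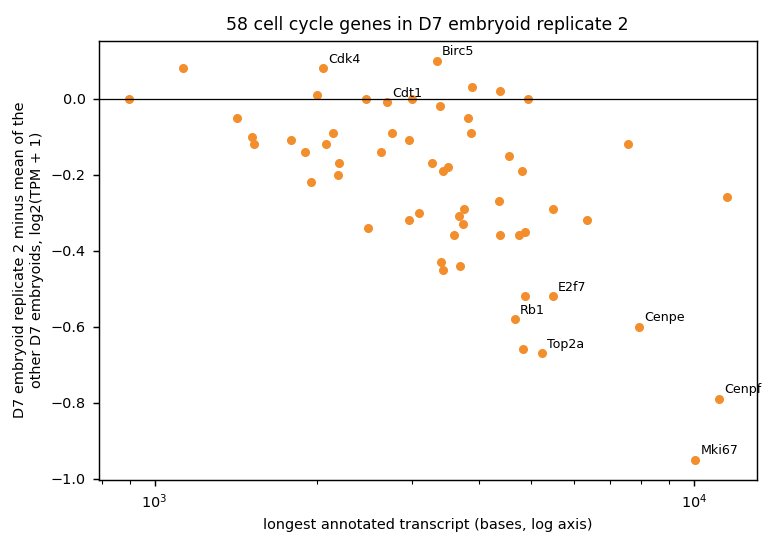
D7 embryoid replicate 2 minus the mean of the other D7 embryoids, in log2(TPM + 1), against the length of the longest annotated transcript in bases on a log axis, with 1 point for each of the 58 tested genes. Most points lie below 0, and Mki67 and Cenpf, which are among the longest transcripts, lie lowest at -0.95 and -0.79, while Cdk6, the longest, lies at -0.26.

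D7 embryoid replicate 2 gave the widest spread among these genes. It lay below the mean of the other D7 embryoids for 48 of 58 genes, and for 16 of the 17 genes with a transcript over 4500 bases. The median gap was -0.36 for those 17 and -0.12 for the shorter ones. Across the 58 genes the gap and log2 length had a Pearson r of -0.615 and a Spearman rho of -0.559, a description over genes of one library, which are not independent. Over all tested genes the gap in this library went from 0.02 in the shortest length class to -0.42 in the longest. Without this library, 20 genes were higher and 17 lower in embryoids at D7 with no minimum fold, and the calls at the minimum fold were still 1 and 3.

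Of 47 further mitosis genes, D7 had 7 higher and 19 lower, 14.9 and 40.4%, near the 20.4 and 44.8% of all genes. D8 had 14 higher and 7 lower, 29.8 and 14.9% against 23.9 and 44.4%, 26 did not pass the test there, and none was called on either day. The D7 median was -0.14 and turned to 0.09 after median-of-ratios scaling, with 17 higher and 9 lower. At D8 the median was 0.07, and 0.28 after that scaling with 32 higher and 2 lower. Of all genes, 31.8% were higher and 29.3% lower at D7 after that scaling, and 34.7 and 31% at D8.

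The E2F factors did not move together. E2f1, an activator of S phase genes, had TPM of 46, 47 and 45 in D7 controls, 48, 47 and 52 in D7 embryoids, 42, 46 and 44 in D8 controls and 64, 49 and 55 in D8 embryoids, with a difference of 0.33 ± 0.08 at D8 (adjusted p = 0.0037) and 0.09 ± 0.08 at D7, which passed the test only after median-of-ratios scaling (0.31). E2f2, also an activator, was lower in embryoids, with 28, 30 and 29 against 16, 13 and 18 at D7 (-0.86 ± 0.12, adjusted p = 5.5e-05) and 30, 30 and 31 against 23, 17 and 19 at D8 (-0.61 ± 0.12). The atypical E2Fs, E2f7 and E2f8, are repressors of E2F target genes and parted at D8. E2f8 had 19, 22 and 21 against 22, 16 and 22 at D7 (-0.06 ± 0.11) and 21, 20 and 19 against 28, 24 and 26 at D8 (0.36 ± 0.11, adjusted p = 0.014).

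E2f7 (chr10:110745439-110787384, GRCm38, plus strand) had the largest D8 difference outside the CDK inhibitors and Rb1. It stood at 26, 29 and 31 TPM in D7 controls and 20, 14 and 21 in D7 embryoids, and at 45 in each D8 control against 17, 16 and 16 in D8 embryoids. The embryoids lay below the controls in every library, by -0.63 ± 0.12 at D7 (adjusted p = 0.00073) and -1.41 ± 0.12 at D8 (adjusted p = 1.2e-06). The change between the days, -0.77 ± 0.17, passed its own test (adjusted p = 0.020).

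The 2 tested CDK inhibitors of the Cip/Kip family were lower in embryoids on both days, as were 44.8% of all tested genes at D7 and 44.4% at D8. Cdkn1a (chr17:29090976-29100727, GRCm38, plus strand), which encodes p21, had TPM of 77, 69 and 78 in D7 controls, 61, 54 and 57 in D7 embryoids, 161, 165 and 162 in D8 controls and 104, 74 and 83 in D8 embryoids. The groups did not overlap, and the difference was -0.37 ± 0.10 at D7 (adjusted p = 0.0066) and -0.91 ± 0.10 at D8 (adjusted p = 9.4e-06). The D7 value was -0.15 after median-of-ratios scaling and did not pass the test there. Cdkn1b, which encodes p27, had 44, 48 and 48 against 24, 22 and 25 at D7 and 56, 55 and 59 against 36, 28 and 31 at D8. The difference was -0.95 ± 0.08 at D7 (adjusted p = 1.8e-06) and -0.83 ± 0.08 at D8 (adjusted p = 4.6e-06), with every embryoid library below every control.

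Among the INK4 inhibitors, Cdkn2c had the largest difference of all 58 genes. Cdkn2c (chr4:109660876-109667189, GRCm38, minus strand), which encodes p18, was listed at 11, 11 and 10 TPM in D7 controls and at 1 in each D7 embryoid, and at 18, 16 and 20 in D8 controls against 3, 2 and 1 in D8 embryoids. The groups were far apart on both days, at -2.54 ± 0.20 (adjusted p = 5.7e-07) and -2.71 ± 0.20 (adjusted p = 2.7e-07), though the embryoid values are near the rounding step. Cdkn2d, which encodes p19 and was the most abundant INK4 gene, had 32, 32 and 30 against 25, 25 and 27 at D7 and 45, 47 and 50 against 33, 32 and 32 at D8. It was lower in embryoids by -0.28 ± 0.06 (adjusted p = 0.00099, not passed after median-of-ratios scaling) and -0.53 ± 0.06 (adjusted p = 5.6e-06). Cdkn2c made up 24.4 to 28.6% of the summed INK4 TPM in the controls and 2.78 to 7.69% in the embryoids.

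The genes of the Cdkn2a and Cdkn2b locus were close to 0 throughout. Cdkn2a, whose locus encodes p16 and p19ARF, was listed at 0 or 1 in the controls, at 1 in each D7 embryoid and at 2 in each D8 embryoid. The D8 difference of 0.92 ± 0.30 passed the test (adjusted p = 0.018) on values within the rounding step, and 2 alternatives and leaving out D8 control replicate 1 or 2 took it over the minimum fold. Cdkn2b, which encodes p15, was listed at 0 in 9 libraries and at 1 in the 3 D8 embryoids, below the filter, and was not tested.

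The 3 RB family genes, the proteins that hold E2F factors inactive, were lower in embryoids on both days. Over all tested genes 44.8% were lower at D7 and 44.4% at D8. Rb1 (chr14:73183673-73325822, GRCm38, minus strand) had TPM of 13, 15 and 16 in D7 controls, 6, 4 and 7 in D7 embryoids, 26, 24 and 24 in D8 controls and 9, 7 and 8 in D8 embryoids. Every embryoid library was below every control, by -1.26 ± 0.15 at D7 (adjusted p = 2.5e-05) and -1.52 ± 0.15 at D8 (adjusted p = 4.3e-06). With a pseudocount of 5 the D7 value was -0.89, short of the minimum fold. Rbl2, which encodes p130, the family member of resting cells, had 3, 4 and 4 against 2 in each embryoid at D7 and 7 in each control against 4, 3 and 3 at D8, which is -0.63 ± 0.12 and -0.89 ± 0.12 (adjusted p = 0.00059 and 3.7e-05). Rbl1, which encodes p107, had 24, 29 and 31 against 22, 16 and 25 at D7 and 32, 30 and 28 against 23, 22 and 22 at D8, lower by -0.41 ± 0.14 on both days and not passing the test after median-of-ratios scaling.

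**Figure D3:**
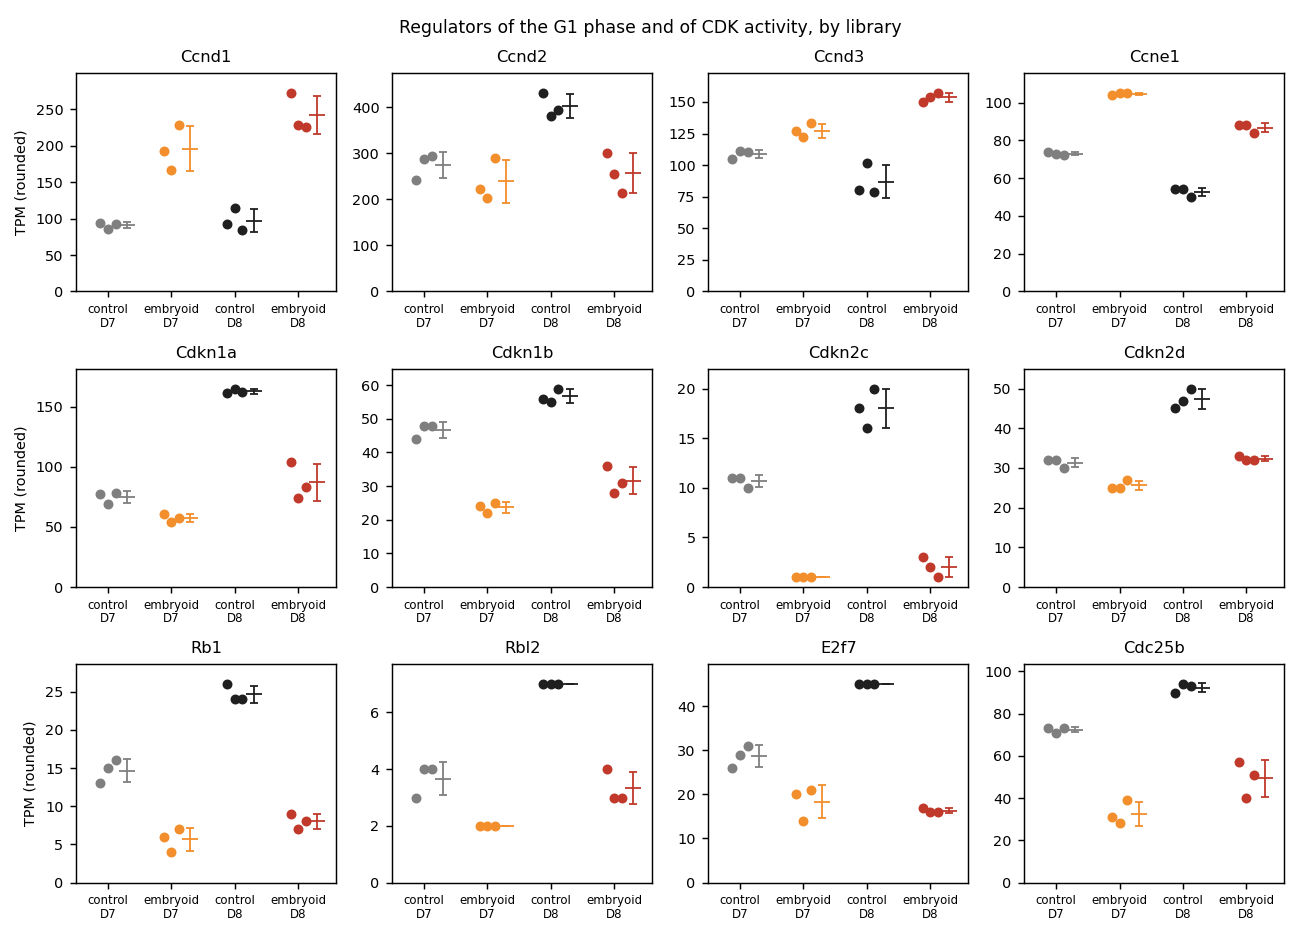
Rounded TPM of 12 regulators in each of the 12 libraries, as 1 point per library with the mean and SD of each group of 3 beside them. Ccnd1, Ccnd3 and Ccne1 lie higher in embryoids than in controls of the same day, and the CDK inhibitors, Rb1, Rbl2, E2f7 and Cdc25b lie lower.

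Marker levels of other cell types moved with the same groups. The summed neuron markers were 1235 ± 47.2 (SD, n = 3) in D7 controls and 306 ± 76.2 in D7 embryoids, then 2754 ± 78 and 632 ± 197 at D8. All 12 were lower in embryoids on each day, against 44.8% of all tested genes at D7 and 44.4% at D8. Their defining genes were present. Dcx was at 14 to 18 TPM in D7 controls and 54 to 65 in D8 controls. In D7 and D8 embryoids it was at 1 to 3 and 6 to 9. The 8 multiciliated cell markers summed to 56 to 62 and 162 to 167 in D7 and D8 controls and to 14 to 20 and 18 to 26 in embryoids. Their defining markers Mcidas and Gmnc were at 6 to 9 in D7 controls, 23 to 28 in D8 controls and 0 or 1 in every embryoid library. The 8 neural progenitor markers summed to 1204 to 1314 in D7 controls and 1624 to 1696 in D8 controls. In embryoids they summed to 225 to 403 at D7 and 442 to 614 at D8. All 8 passed the test as lower in embryoids at D7 and 7 did at D8, against 44.8 and 44.4% of all genes. The 6 endothelium markers were all called higher in embryoids on both days, against 8.27% of all tested genes at D7 and 10.4% at D8. Cdh5 was at 0 in the controls and 36 to 55 in the embryoids. The 6 tested anterior neural markers were all called lower in embryoids on both days, against 8.35 and 9.96% of all tested genes. The part of these cell types in the levels of the cell cycle genes was not tested.

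Of 25 further cell cycle regulators, 2 were called higher in embryoids on both days and 0 lower, and the 8% called higher is close to the 8.27 and 10.4% of all genes. Mycn, which drives growth and cell cycle entry, had TPM of 9, 9 and 10 against 25, 22 and 30 at D7 and 13, 12 and 12 against 40, 27 and 31 at D8, 1.36 and 1.32 higher. Myc was listed at 0 in the 6 controls and at 2 or 3 in the embryoids. Of 16 tested p53 targets other than Cdkn1a, D7 had 1 higher and 9 lower (6.25 and 56.2%) and D8 had 3 higher and 8 lower (18.8 and 50%), against 20.4 and 44.8% and 23.9 and 44.4% of all genes. After median-of-ratios scaling 4 were higher and 5 lower on both days, against 31.8 and 29.3% of all genes at D7 and 34.7 and 31% at D8. Trp53inp1 (70, 73 and 78 against 26, 17 and 23 at D7, -1.72) and Btg2 (81, 84 and 87 against 29, 28 and 34, -1.44) were called lower on both days, while the death receptor gene Fas, at 3 to 5 in D7 controls and 1 to 3 in D7 embryoids, was called higher at D8 (4, 3 and 3 against 7, 10 and 12, 1.28).

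Between D7 and D8 the replication and mitosis genes fell in the controls. With no minimum fold, 30 of the 58 genes were lower and 8 higher at D8, 51.7 and 13.8%, against 8.03% lower and 17.4% higher over all tested genes. At the minimum fold 1 gene was called higher (Cdkn1a) and 0 were called lower, against 3.02% and 0.204% of all genes. Median-of-ratios scaling gave 35 lower and 7 higher, against 12.6 and 14.8% of all genes. The 35 included all 30 genes that fell on the deposited scale. Without D7 control replicate 1 or without D8 control replicate 1, 5 genes rose in place of 8. The median change was -0.21, against 0.04 over all genes.

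By role, 10 of 11 licensing genes and 11 of 16 mitosis genes fell in the controls. So did 4 of 6 of the CDK1 and CDC25 group and 3 of 4 DNA synthesis genes. Over all tested genes 8.03% fell. After median-of-ratios scaling 10, 12, 5 and 4 fell in the same order of roles, against 12.6% of all genes. Bub1 fell from 46, 48 and 50 to 35, 34 and 33 TPM (-0.49 ± 0.11), Mcm10 from 70, 74 and 76 to 53, 53 and 52 (-0.47 ± 0.08) and Ccne1 from 72 to 74 to 50 to 54 (-0.46 ± 0.04, adjusted p = 2.2e-05). Of the further lists, 23 of 38 replication genes and 28 of 47 mitosis genes fell, and 30 and 36 after median-of-ratios scaling. The genes that rose were Ccnd2, Cdkn1a, Cdkn1b, Cdkn2c, Cdkn2d, E2f7, Rb1 and Rbl2. Cdkn1a rose by 1.12 ± 0.10 (adjusted p = 2.5e-05), Rbl2 by 0.79 ± 0.12, Rb1 by 0.72 ± 0.15 and Cdkn2d by 0.58 ± 0.06. Over the same interval the summed neuron markers went from between 1181 and 1266 to between 2676 and 2832 in controls, a median change of 1.15 over the 12 genes, and the median change was 1.26 in embryoids. The part of these markers in the changes was not tested.

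In the embryoids fewer of these genes passed the test. With no minimum fold, 13 of 58 were lower and 7 higher at D8, 22.4 and 12.1%, against 4.52% lower and 16.1% higher over all genes. None was called at the minimum fold in either direction, against 2.93% higher and 0.131% lower of all genes, and 32 had an unadjusted p under 0.05. Median-of-ratios scaling gave 20 lower and 7 higher, against 8.95 and 12.9% of all genes. The count of 13 depended on single libraries. It was 23 without D7 embryoid replicate 2, 8 without D7 embryoid replicate 1 and 8 without D8 embryoid replicate 2. These tests pool the spread over all 12 libraries. The summed TPM of the 59 genes had an SD of 545.1 in D7 embryoids and 181.1 in D8 embryoids. In controls it was 135.5 at D7 and 104.8 at D8. With only the 6 embryoid libraries fitted, fewer of the 58 genes passed. Over all genes 152 were then called higher and 1 lower, in place of 403 and 18. The genes that fell were Aurka, Ccne1, Cdc20, Cdc45, Cdt1, Mad2l1, Mcm10, Mcm5, Mcm6, Mcm7, Pcna, Plk1 and Tyms. Of these 13 genes, 12 were among the 30 that fell in controls. By role, 6 of 11 licensing genes, 2 of 4 DNA synthesis genes and 4 of 16 mitosis genes fell in the embryoids. Of the further lists, 16 of 38 replication genes and 4 of 47 mitosis genes fell, against 4.52% of all genes. The median change of these 38 genes was -0.16, and -0.2 in controls. No licensing gene passed the test of the change of the embryoid-control difference on the deposited scale. In the embryoids the summed neuron markers went from between 261 and 394 to between 466 and 850, and the 7 cardiac markers had a median change of 1.45, whose part in these changes was not tested. Of the genes that fell, Mcm5 had the largest change, from 394, 374 and 363 to 296, 297 and 315 TPM (-0.32 ± 0.04, adjusted p = 0.00046).

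The genes that rose in embryoids were Ccnd3, Cdc25b, Cdkn1a, Cdkn1b, Cdkn2d, E2f8 and Rbl2, and 4 of these 7 were among the 8 that rose in controls. Cdkn1a rose by 0.58 ± 0.10 (adjusted p = 0.0024), Rbl2 by 0.52 ± 0.12 and Cdkn1b by 0.40 ± 0.08. D8 embryoid replicate 1 had the highest value of its group for Cdkn1a (104 against 74 and 83), Cdkn1b (36 against 28 and 31), Cdc25b (57 against 40 and 51) and Ccnd2 (301 against 255 and 215), and it also had the highest neuron marker sum, 850 against 466 and 580. Without it, 6 genes in place of 3 were called lower in D8 embryoids than in D8 controls, the added genes being Cdkn1a (-1.04), Cdc25b (-1.02) and Rbl2 (-1.0).

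**Figure D4:**
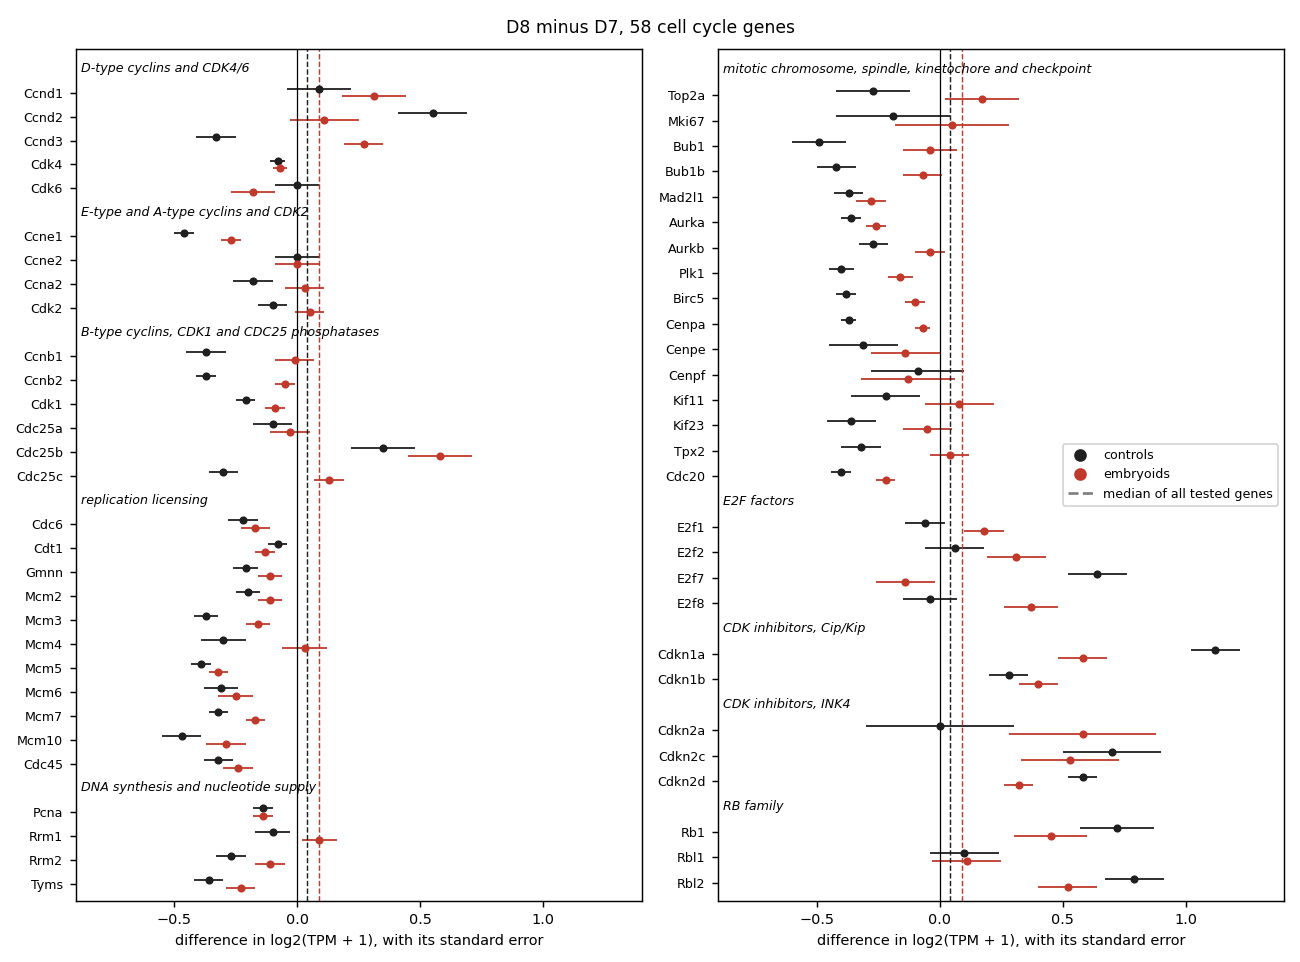
Change from D7 to D8 of the 58 tested genes in controls (black) and embryoids (red), grouped by role, as differences in log2(TPM + 1) with their standard errors. Licensing and mitosis genes lie mostly below 0 in controls, with most embryoid points nearer to 0, and the CDK inhibitors and RB family lie above 0 except Cdkn2a in controls, which lies at 0, with Cdkn1a in controls highest at 1.12.

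The change of the embryoid-minus-control difference between the days was tested directly. No gene was called at the minimum fold, against 1.64% higher and 0.960% lower of all tested genes. With no minimum fold the difference rose for 5 genes (Ccnd3, Ccnb2, Cdc25c, Birc5 and Cenpa) and fell for 2 (E2f7 and Cdkn1a), 8.62 and 3.45% of the 58 against 5.37% and 3.71% of all genes, and 21 genes had an unadjusted p under 0.05. Cdkn1a rose from 69 to 78 to between 161 and 165 TPM in controls and from 54 to 61 to between 74 and 104 in embryoids, so that the difference moved by -0.53 ± 0.14 (adjusted p = 0.041). Cenpa changed by -0.37 ± 0.03 in controls and by -0.07 ± 0.03 in embryoids, and its difference moved by 0.29 ± 0.05 (adjusted p = 0.0044). Leaving out a D7 embryoid library raised the first count and moved the second, to 9 and 1 for replicate 1, to 11 and 3 for replicate 2 and to 8 and 1 for replicate 3. The count of 2 was 0 without D7 control replicate 1, D8 control replicate 1 or D8 control replicate 3, and 1 without D7 control replicate 2 or 3, D8 control replicate 2 or D8 embryoid replicate 2 or 3.

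**Figure D5:**
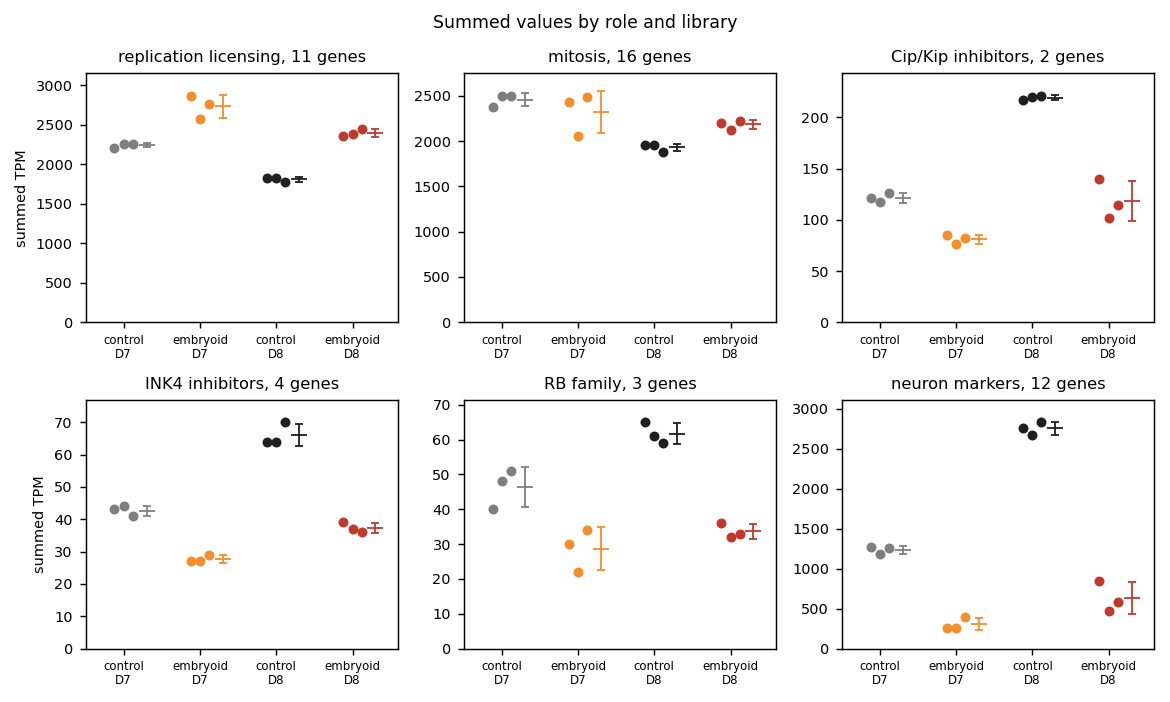
Summed TPM of the licensing genes, the mitosis genes, the Cip/Kip and INK4 inhibitors, the RB family and, for comparison, 12 neuron markers, as 1 point per library with the mean and SD of each group of 3. Licensing sums lie higher in embryoids than in controls of the same day (2570 to 2863 against 2208 to 2258 at D7) and inhibitor sums lie lower (Cip/Kip 102 to 140 against 217 to 221 at D8).

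The summed levels give the same groups by library. The 16 mitosis genes summed to 2376, 2499 and 2493 TPM in D7 controls, 2431, 2052 and 2484 in D7 embryoids, 1954, 1957 and 1884 in D8 controls and 2203, 2125 and 2224 in D8 embryoids, overlapping at D7 and not at D8. The Cip/Kip inhibitors summed to 117 to 126 in D7 controls, 76 to 85 in D7 embryoids, 217 to 221 in D8 controls and 102 to 140 in D8 embryoids. The INK4 inhibitors summed to 41 to 44, 27 to 29, 64 to 70 and 36 to 39 in the same order, and the RB family to 40 to 51, 22 to 34, 59 to 65 and 32 to 36. All 59 genes together took 0.944 to 0.969% of the TPM in D7 controls, 0.902 to 0.998% in D7 embryoids, 0.839 to 0.858% in D8 controls and 0.896 to 0.931% in D8 embryoids.

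Some of these values may include reads of a second gene. Exons of 19 of the 59 genes overlap exons of a gene on the other strand in GENCODE vM21, 13 of them a protein-coding gene, and no source used here says whether reads were counted by strand. Among the genes named above, Ccnd1 overlaps LTO1, Ccnd3 overlaps Bysl, Cdk4 overlaps Tspan31 and Cdc25b overlaps Spef1. Rb1 overlaps Rcbtb2 and Lpar6, Rbl2 overlaps Aktip and Mcm7 overlaps Cops6 and Ap4m1. Ccne2 overlaps Ints8, Ccna2 overlaps Exosc9, Cdk2 overlaps Pmel, Cdc25c overlaps Gm3550, Cdc45 overlaps Ufd1 and Cdc20 overlaps Elovl1. Ccnd2, Cdk6, Plk1, E2f7, E2f8 and Cdkn1a overlap genes that are not annotated as protein-coding. Cdkn1b, Cdkn2c, Cdkn2d, Ccne1, Cdt1, Mcm3 and Cenpa had no such overlap.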

How the data were processed

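Total RNA of pooled embryoids or controls was sequenced as 12 single-end bulk libraries. Per the labels' processing notes and the paper, the authors aligned reads to mm10 with STAR 2.6.1a, also used featureCounts and SAMtools 0.1.20, and applied DESeq2 for differential expression. The values deposited by the authors are whole numbers that sum to 997897 to 998433 per library, entered here as a score and read as TPM rounded by the authors, so no count test was possible and depth is unknown. The labels give 12 pooled structures and 10 ng/ml of BMP4, and the paper gives another pool size and dose.

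The members and gene lists were chosen with earlier results of these data known. Values were taken as log2(TPM + 1) (pseudocount 1) and fitted with limma 3.58.1 (R 4.3.3, statmod 1.5.0, trended and robust empirical Bayes) as 4 group means over all 12 libraries. The filter, 1 or more groups averaging above 1, left 13751 genes. A call needed a Benjamini-Hochberg adjusted p below 0.05 together with an absolute log2 fold change over 1. The script was tested on simulated data. All 59 genes are accounted for. Values per library are given for genes called in any comparison, for the largest and smallest change of each role, for paralog families and for up to 3 called genes in each direction of each further list, with Hprt as a check, and other members were added after their values were seen. Alternatives were pseudocounts of 0.5 and 5, no filter and a filter above 5, quantile and median-of-ratios scaling, plain limma variances, a replicate block, only the libraries compared, no minimum fold and leaving out each library. Gene positions and transcript lengths came from GENCODE vM21, promoters from RefSeq on GRCm38.p6, and plots used matplotlib 3.10.9 with Python 3.11.15.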

Additional observations from a re-analysis of the deposited data

Results flagged for a closer look

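For 7 of the 58 tested genes the embryoid-minus-control difference was not the same on D7 and D8 by the limma test of that change, each by less than the minimum fold. It rose by 0.60 for Ccnd3, 0.32 for Ccnb2, 0.43 for Cdc25c, 0.28 for Birc5 and 0.29 for Cenpa, and it moved by -0.77 for E2f7 and -0.53 for Cdkn1a. Over 20 alternatives the adjusted p stayed under 0.05 for Ccnd3 (0.00058 to 0.032), Ccnb2 (0.0043 to 0.036), Cdc25c (0.0064 to 0.039) and Cenpa (0.0028 to 0.027), was above it in 1 for Birc5 (0.0017 to 0.14) and in 3 for E2f7 (0.00025 to 0.054), and was above it in 11 for Cdkn1a (0.0032 to 0.10).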

How the results depend on the processing

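Of 6017 values of single genes under the alternatives, 5917 kept both their sign and their side of the thresholds for a call, 4 fell below the minimum fold and 10 passed it. The sign changed in 86, of which 23 came with median-of-ratios and 21 with quantile scaling. In 85 of them the value had not passed the test, and the other was Cdc20 at D7, at 0.03 with median-of-ratios scaling. In 13 the value passed the test with its new sign, each as higher in embryoids. With median-of-ratios scaling these were Cdk2 (0.14), Mcm4 (0.20), Tyms (0.18), Bub1b (0.12), Aurka (0.21) and Plk1 (0.14) at D7 and Cdc25c (0.17) and Cdc20 (0.19) at D8, and with quantile scaling Mcm4 (0.19), Tyms (0.15) and E2f8 (0.19) at D7 and Cdc25c (0.16) and Cdc20 (0.10) at D8. For embryoids against controls at D7, the numbers called higher and lower (1 and 3) were 16 and 19 with no minimum fold, the higher was 2 with a pseudocount of 0.5 and with median-of-ratios scaling, and leaving out single libraries gave 0 to 1 and 3 to 3. At D8 (1 and 3) they were 29 and 14 with no minimum fold, the higher was 2 with a pseudocount of 0.5 and 3 with median-of-ratios scaling, and leaving out libraries gave 1 to 2 and 3 to 6. With no minimum fold the D7 numbers (16 and 19) were 31 and 10 with median-of-ratios and 27 and 12 with quantile scaling, and 14 to 20 and 16 to 22 without single libraries, and at D8 (29 and 14) leaving out libraries gave 26 to 33 and 12 to 15. For the change of the difference (0 and 0 called) the numbers were 5 and 2 with no minimum fold, which became 12 higher with median-of-ratios and 16 and 4 with quantile scaling, and 5 to 11 and 0 to 3 without single libraries. For D8 against D7 in embryoids (0 and 0) they were 7 and 13 with no minimum fold, which became 3 and 2 with only the libraries compared, 20 lower with median-of-ratios scaling, and 5 to 10 and 8 to 23 without single libraries. For controls (1 and 0) they were 8 and 30 with no minimum fold, and 5 to 9 and 24 to 35 without single libraries. Called numbers for the changes between days stayed at 0, or at 1 for Cdkn1a in controls, without any single library. The cause of these shifts was not tested. Fits of only the libraries compared hold 6 libraries. Between days in embryoids they called 152 of all tested genes higher and 1 lower, in place of 403 and 18. In controls they called 410 and 25, in place of 415 and 28. Replicate numbers did not pair the libraries: deviations of same-numbered libraries correlated at -0.19 to 0.076, and 0 pairs were above 0.1. With a replicate block the numbers with no minimum fold were 16 and 19 at D7, 29 and 14 at D8, 5 and 2 for the change of the difference, 6 and 11 between days in embryoids and 8 and 30 in controls. Rounding limits genes listed at 1 to 5, such as Cdk6, Ccne2, Cdkn2a, Rbl2 and Cdkn2c in embryoids.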
